A study of Nothobranchius furzeri with 20 samples.

Results

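The genes described here are those whose transcript level was lower in every muscle library of 27-week-old fish than in every library of 9-week-old fish. They come from RNA sequencing of killifish muscle. All fish were males of Nothobranchius furzeri, an annual fish with a very short lifespan, and belonged to the strain MZM-04/10p. There were 20 libraries: 10 from fish of 27 weeks labelled swim-tunnel, 5 from fish of 9 weeks labelled swim-tunnel, and 5 from fish of 9 weeks whose perturbation label was none. A swim tunnel makes fish swim against moving water, and the labels did not give the duration or intensity. No unexercised 27-week fish were analysed here, so 27-week fish differ from exercised 9-week fish in age, and from unexercised 9-week fish in both age and exercise. The labels named no animals, so the spread between libraries may be partly technical. Sample codes ran in separate stretches for the 3 groups, so anything that followed the codes cannot be told apart from age or exercise.

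The genes were chosen by their CPM values in these same libraries, where CPM is the count divided by the total of its own library, times 1000000. Of 26739 genes, 655 had their highest 27-week library below their lowest 9-week library, which is 2.45% of the table, and 177 (0.662%) had the opposite pattern. Both counts require that no libraries of the 2 ages overlap, so they do not measure how many genes rose or fell. A mean of at least 1 CPM at 27 weeks and of at least 5 CPM at 9 weeks left 592 of the 655, and a 9-week mean of at least 1.5 times the 27-week mean left 557. The means of 27-week libraries 1 to 5 (codes JM132 to JM137) and of libraries 6 to 10 (codes JM139 to JM143) also had to lie within 1.5-fold of each other, which 444 genes met. The 150 genes with the largest ratio of 9-week to 27-week mean were kept. Without 27-week library 6 the rule was met by 713 genes. Because the CPM values of both ages chose the genes, the difference between the ages is given below as a description, without a test.

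Skeletal muscle is made of long multinucleate fibres packed with contractile proteins, and its RNA is dominated by a small number of contractile and energy-supply transcripts. With age, fish and mammalian muscle both lose fibre mass and regenerative capacity, and the transcripts of many cellular functions shift in level. In bulk tissue a lower level can come from less RNA per cell or from fewer cells of the type that makes it, and these cannot be told apart here. The tables name genes by identifiers alone. None of the identifiers, 0 of 26739, matched the 38438-gene RefSeq table of assembly NfurGRZ-RIMD1, so no gene name, function, sequence or genome position is given, and neither the muscle label nor the presence of other cell types could be checked by marker genes. Genes are therefore called by their rank in the ratio, and 4 of them by identifier.

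Together the 150 genes held 0.612% ± 0.0768 of all counts at 27 weeks (SD, n = 10), 1.42% ± 0.292 in the exercised 9-week group and 1.63% ± 0.363 in the unexercised 9-week group (SD, n = 5 each). The 27-week libraries lay between 0.54% and 0.817%, with a median of 0.593%. The exercised 9-week libraries 1 to 5 stood at 1.27%, 1.19%, 1.18%, 1.81% and 1.65%. The unexercised libraries 1 to 5 stood at 1.399%, 1.52%, 1.49%, 2.27% and 1.45%. No 27-week library reached the level of any 9-week library, as the rule required of each gene. The mean share at 27 weeks was 0.431 times that of exercised and 0.377 times that of unexercised fish of 9 weeks. Without the 2 most abundant genes of the set, the rest held 0.478% ± 0.0617 at 27 weeks (SD, n = 10). At 9 weeks they held 1.11% ± 0.217 with exercise and 1.29% ± 0.28 without it (SD, n = 5 each). A lower share at 27 weeks was fixed here too, since the rule required it of each gene.

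**Figure D1:**
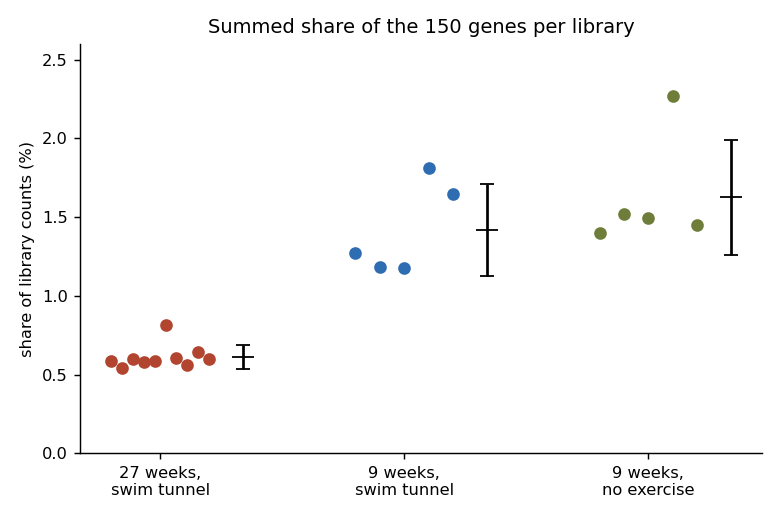
Share of all gene counts of a library that fell on the 150 genes, in percent, with 1 point per library and the group mean ± SD as a bar beside the points. The 10 libraries of 27-week fish lie between 0.54% and 0.817% and all 9-week libraries at 1.18% or above, with library 4 of the unexercised fish highest at 2.27%.

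The gene with the largest ratio was Nfu_g_1_010825, with a length of 1069 bases. It stood between 11.7 and 40.3 CPM in the 27-week libraries, with a median of 17.6 CPM. In exercised fish of 9 weeks it had 161.0, 95.6, 108.4, 112.9 and 162.4 CPM in libraries 1 to 5, and in unexercised fish 132.8, 120.3, 170.7, 137.8 and 114.1 CPM. Its lowest 9-week library was 2.37 times its highest 27-week library, the widest gap of the 150 genes, and the highest 27-week library was library 6. On average it had 20.8 ± 9.21 CPM at 27 weeks (SD, n = 10), against 128.1 ± 31.4 CPM with exercise and 135.1 ± 22.0 CPM without it at 9 weeks (SD, n = 5 each). The 9-week mean was 6.33 times the 27-week mean.

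The ratio fell away quickly below this gene. It was at least 4 for 6 genes, at least 3 for 21 and at least 2.5 for 67, with a median of 2.46 over the 150. On the log2 scale the median was -1.30, against 0.07 over the 16653 genes that passed a filter on low counts. The genes at ranks 2 to 6 had ratios between 4.25 and 4.78. Rank 2 was uneven among young fish: it averaged 28.7 ± 8.71 CPM at 27 weeks (SD, n = 10), against 102.9 ± 75.2 CPM with exercise and 170.9 ± 62.5 CPM without it at 9 weeks (SD, n = 5 each), and its lowest 9-week library was only 1.05 times its highest 27-week library. Rank 6 was more even, at 24.7 ± 4.91 CPM at 27 weeks (SD, n = 10), against 102.2 ± 28.3 CPM with exercise and 107.7 ± 36.1 CPM without it at 9 weeks (SD, n = 5 each), with a gap of 2.06-fold. At the lower end the ratio of rank 150 was 2.1912 and that of the first gene left out was 2.1908.

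A large ratio and a wide gap were different properties. The lowest 9-week library exceeded the highest 27-week library by at least 1.1-fold for 122 of the 150 genes, by at least 1.2-fold for 87, by at least 1.5-fold for 16 and by at least 2-fold for 2. The median gap was 1.248-fold and the smallest 1.002-fold. Among genes with the same minimum ratio and means, the nearest one outside stood at 0.999. Of the 294 genes that met the rule but ranked lower, the median gap was 1.09-fold and the widest 1.39-fold. The separation of single libraries is therefore narrow for many of these genes, although the mean over all 9-week libraries is more than 2 times the 27-week mean for all 150.

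**Figure D2:**
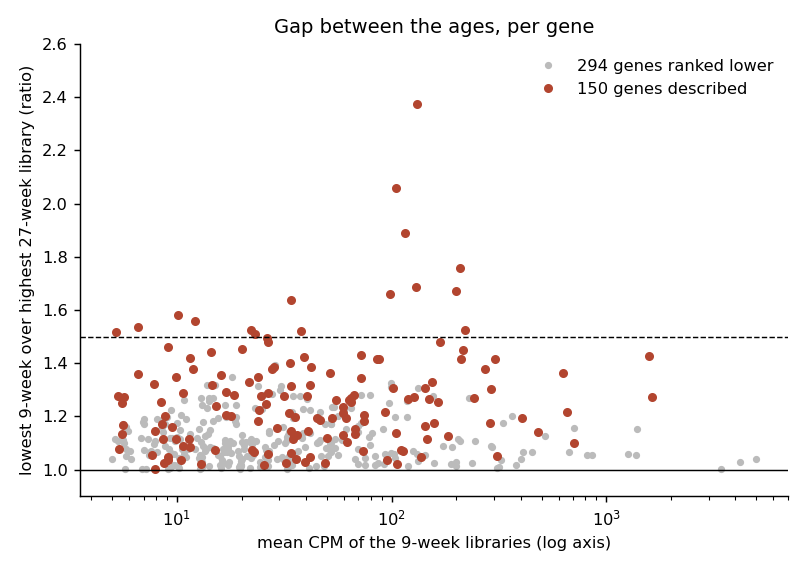
Ratio of the lowest 9-week library to the highest 27-week library for each gene, on a linear axis, against the mean CPM of the 9-week libraries on a log axis. Red points are the 150 genes, grey points the 294 genes that met the rule with a smaller ratio of means, the solid line marks a ratio of 1 and the dashed line 1.5, which 16 of the 150 genes reach.

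The 2 edges of the gap were set by few libraries. Library 6 was the highest of the 27-week libraries for 97 of the 150 genes (64.7%), and it was the highest for 17.5% of all tested genes. Library 9 came next, with 19 genes. On the 9-week side the lowest library was exercised library 2 for 66 genes and exercised library 3 for 42, together 72.0%, and these libraries were lowest for 15.3% and 18.5% of tested genes. An unexercised library was the lowest for 32 genes. At the upper end of the 9-week range, unexercised library 4 was highest for 96 genes (64.0%, against 24.2% of tested genes) and exercised library 4 for 30 (20.0%, against 18.8%).

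These libraries also differed in composition. In 27-week library 6 its 50 most abundant genes took up 55.7% of the counts, the lowest value of its group, whose other libraries lay between 57.3% and 63.2%. In unexercised library 4 they held 50.5%, against 55.2% to 58.7% in the other 4 libraries of that group. In exercised 9-week library 4 they held 53.7%, and in libraries 2 and 3, the ones most often lowest, 61.4% and 60.8%. In each group the library with the highest share of the 150 genes thus had the lowest share of the 50 most abundant ones. The other libraries did not all keep to this order. In exercised 9-week library 5 the next lowest share, 56.9%, went with the next highest share of the 150 genes, 1.65%. In unexercised library 5 the next lowest share, 55.2%, went with 1.45%, below libraries 2 and 3 of that group. The part of composition in the levels of the 150 genes was not tested. Without library 6 the 150 genes held 0.59% ± 0.0285 (SD, n = 9) at 27 weeks, and without library 4 they held 1.46% ± 0.0532 (SD, n = 4) in unexercised fish of 9 weeks.

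**Figure D3:**
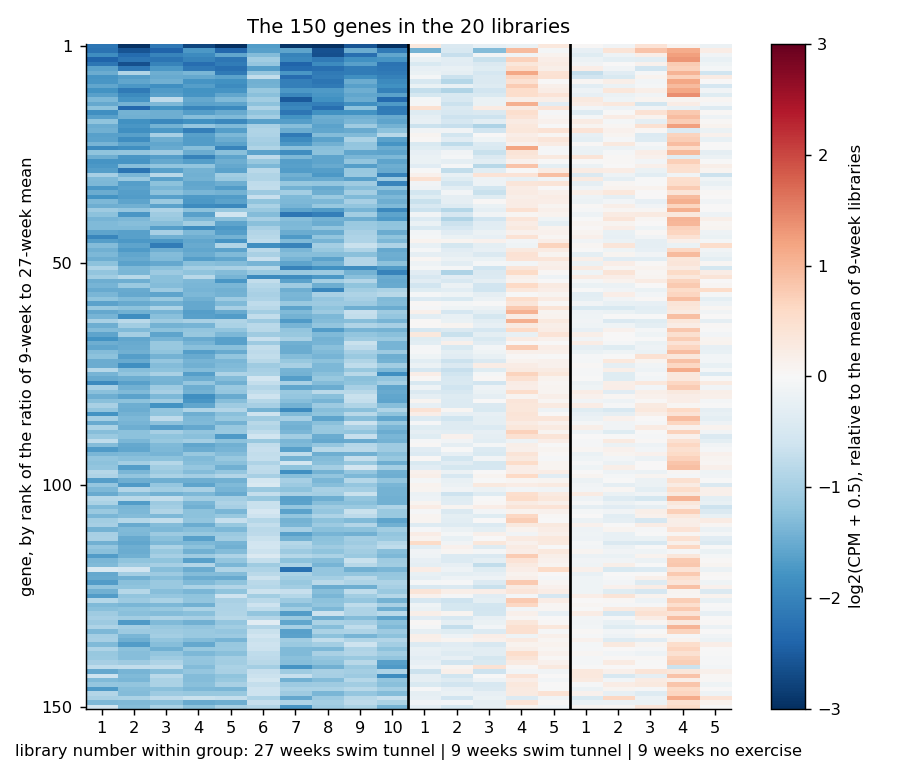
Level of each of the 150 genes (rows, by rank of the ratio) in each library (columns, numbered within the 3 groups), as log2(CPM + 0.5) minus the mean of that gene over the 10 libraries of 9-week fish, so that blue is below and red above that mean. All 27-week columns are blue, library 6 is the palest of them for most genes, and library 4 of the unexercised fish is the reddest column.

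Each library was given the median, over the 150 genes, of its deviation in log2(CPM + 0.5) from the group mean. At 27 weeks this was 0.42 in library 6 and 0.18 in library 9, and between -0.17 and 0.03 in the other 8. In unexercised fish it was 0.50 in library 4 and between -0.14 and -0.11 in the other 4, and in exercised fish of 9 weeks 0.37 and 0.20 in libraries 4 and 5 and between -0.27 and -0.11 in the other 3. Over all tested genes the same median was 0.16 in unexercised library 4, and 0.11 and 0.003 in exercised 9-week libraries 4 and 5. In 27-week libraries 6 and 9 it was -0.03 and -0.13 over tested genes. Library 6 lay above the mean of the other 9 libraries for 94.7% of the 150 genes, against 43.8% of tested genes. Across the 10 libraries of 27 weeks the mean Pearson correlation over all pairs of the 150 genes was 0.32, against 0.17 over all pairs of tested genes. Without library 6 it was 0.14 for the 150 genes, against 0.17 for tested genes. These pairs share libraries and their composition, so the values describe the libraries and carry no test. The rule also bears on them, since it limited how far 27-week libraries 1 to 5 and 6 to 10 could differ. That limit held for the 150 genes and not for tested genes, so nothing is read from the comparison of the correlations.

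The spread of single genes was described by their SD within a group. The median SD of log2(CPM + 0.5) was 0.29 at 27 weeks, 0.35 in exercised and 0.31 in unexercised fish of 9 weeks. Over all tested genes it was 0.38, 0.28 and 0.25 in the same order of groups. The rule bears on these values, since it sets an upper bound at 27 weeks, a lower bound at 9 weeks and a limit on the difference between the 27-week libraries 1 to 5 and 6 to 10, so nothing is read from them.

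The most abundant of the 150 genes at 9 weeks was Nfu_g_1_001619, rank 65 in the ratio, with a length of 9327 bases. It stood between 492.3 and 874.1 CPM in the 27-week libraries, with a median of 652.0 CPM. Exercised libraries 1 to 5 of 9 weeks had 1111, 1158, 1111, 2371 and 1833 CPM, and unexercised libraries 1 to 5 had 1313, 1703, 1510, 2752 and 1550 CPM. The highest 27-week library was again library 6, and the 9-week values were led by library 4 of each group. Per base of length its level was 70.1 RPKM (CPM per 1000 bases of gene length) at 27 weeks and 176.0 RPKM at 9 weeks. Its ratio of 2.51 was close to the median of the set.

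Levels spanned a wide range and were mostly above the median tested gene, which the CPM minimums of the rule favour. Per length, the median gene of the 150 had 6.39 RPKM at 27 weeks and 15.8 RPKM at 9 weeks. The medians were 1.90 and 1.75 RPKM over the tested genes with a known length. Over the 294 genes that met the rule but ranked lower they were 6.31 and 11.3 RPKM. At 9 weeks the set ran from 1.13 to 448.2 RPKM. In 5 equal classes of tested genes by mean CPM, 90 of the 150 genes fell in the highest class, 34 and 26 in the next 2 and 0 in the lowest 2, where the CPM minimums of the rule leave few genes that could qualify. No gene of the set was among the 50 most abundant of the series. In 3 classes of 50 genes by 9-week RPKM, from low to high, the median ratio of 9-week to 27-week mean was 2.501, 2.438 and 2.459. The set was cut on this same ratio, at 2.19, so these medians cannot show whether the ratio went with level. The weakest single value was 16 counts in a 27-week library and 104 counts in a 9-week library, and 29 genes had a 27-week library under 100 counts, so counting error is small for most of the set.

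The median gene length of the set was 2571.5 bases, against 2829.5 bases over 16600 tested genes of known length. The middle 50% of the set lay between 1523 and 5009 bases, and that of the tested genes between 1415 and 4873 bases. In 5 equal length classes, from short to long, the set had 29, 39, 25, 26 and 31 genes. It held 24 genes under 1000 bases and 7 above 10000 bases, up to 25744 bases. The 50 genes with the highest 9-week RPKM had a median length of 1783.5 bases and the 50 with the lowest 3512 bases, where RPKM itself is divided by length.

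Identifier numbers of the 150 genes ran from low numbers up to 23605, and 2 pairs had consecutive numbers. With the genes in number order, 16 pairs of adjacent genes lay within 10 identifiers of each other. No chance level was computed for these counts, so grouping of the numbers was not tested. Whether neighbouring numbers mean neighbouring genes is not given in the sources used here. Near-identical copies that share reads could not be recognised from identifiers.

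Within the 27-week group the rule limited how far libraries 1 to 5 and libraries 6 to 10 could differ. On own library totals, 104 of the 150 genes were lower in libraries 1 to 5 and 46 were higher, with a median ratio of 0.872 and a range from 0.676 to 1.499. Just inside the limit of 1.5-fold, among all 444 genes, the largest ratio in either direction was 1.4995, and just outside it was 1.5055. Of the 113 genes that this limit removed, 110 (97.3%) were lower in libraries 1 to 5. The median ratio over all tested genes was 1.34, in the other direction.

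This balance depended on the scaling of the libraries. TMM factors (edgeR's trimmed mean of M-values, which equalise the bulk of genes rather than the total) were 1.17 ± 0.0557 (SD, n = 5) in libraries 1 to 5 and 0.869 ± 0.076 (SD, n = 5) in libraries 6 to 10. On TMM-scaled totals the median block ratio of the 150 genes was 0.652, against 0.992 over tested genes. On that scale 94.0% of the 150 genes were lower in libraries 1 to 5, and 65 kept the block means within 1.5-fold. The separation of the ages was less affected, since 92.7% of the 150 genes still had all 27-week libraries below all 9-week libraries. After this scaling the set held 0.498% ± 0.0331 of counts in 27-week libraries 1 to 5 and 0.742% ± 0.0542 in libraries 6 to 10, against 1.44% ± 0.223 with exercise and 1.61% ± 0.213 without it at 9 weeks (SD, n = 5 each). Both runs of 27-week libraries were thus below both 9-week groups on either scale. The limit on their difference was part of the rule on own totals.

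Set against each 9-week group by edgeR's model on TMM-scaled counts, the 150 genes had a median log2 fold change of -1.26 for 27-week over exercised 9-week fish, with a range from -2.66 to -0.73. Against unexercised fish the median was -1.34, with a range from -2.72 to -0.83. Over all tested genes the medians were 0.03 and 0.06. Both comparisons use the same 27-week libraries, and the rule used both, so no p-value is given. The decrease was larger against unexercised fish for 102 of the 150 genes. These are the same 102 genes whose exercise fold change at 9 weeks, given below, was under 0. In this fit the 2 comparisons differ by exactly that fold change, so the count is not a separate observation. With libraries 1 to 5 as the only 27-week fish, the medians were -1.65 against exercised and -1.72 against unexercised fish of 9 weeks, and with libraries 6 to 10 only they were -0.996 and -1.10. Per library, the median log2 deviation of the 150 genes from the mean of all 9-week libraries was also taken. On own totals it averaged -1.35 ± 0.0715 in libraries 1 to 5 and -1.19 ± 0.227 in libraries 6 to 10 (SD, n = 5 each). On TMM-scaled totals the averages were -1.56 ± 0.0671 and -1.01 ± 0.152 (SD, n = 5 each). The rule limited this difference on own totals only.

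The rule did not compare exercised with unexercised fish of 9 weeks, but it used the libraries of both groups. Each gene had to lie above the 27-week libraries in every 9-week library, and the ranking used the mean over all 9-week libraries. The choice of genes therefore bears on how far the groups could differ, and the comparison of the set with tested genes is a description. None of the 150 genes was called between exercised and unexercised fish of 9 weeks (0 of 150, edgeR adjusted p under 0.05). Of all 16653 tested genes 0.180% were called, 0.108% higher with exercise and 0.0721% lower. At an unadjusted p under 0.05 there were 19 of the 150 genes, or 12.7%, against 13.6% of tested genes. Of the 150 genes, 6 (4.0%) were higher with exercise at this threshold, against 7.87% of tested genes, and 13 (8.67%) were lower, against 5.76%. DESeq2 called 1 of the 150 genes (2.14% of all genes entered) and a fit of the 9-week libraries alone called 1 (1.12%), both higher with exercise. With only 27-week libraries 1 to 5 beside the 9-week libraries in the edgeR fit, 5 of the 150 genes were called, 4 higher and 1 lower (3.17% of tested genes), and with only libraries 6 to 10 it was 2, both higher (2.04%). A missing call does not show that exercise left these genes alone: the median standard error was 0.22 on the log2 scale.

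Fold changes with exercise were small and leaned to the lower side. The median log2 fold change over the 150 genes was -0.15, against 0.04 over all tested genes. The fold change was below 0 for 102 genes and above 0 for 48 (32.0%), where 54.5% of tested genes were above 0. The middle 50% of the set lay between -0.26 and 0.06 and the extremes were -0.79 and 0.79. Over tested genes the middle 50% lay between -0.19 and 0.27 and the extremes were -3.28 and 5.05. The part of the rule in the narrower range and the lower median of the set was not tested. Without unexercised library 4 the median was -0.05, and without exercised library 4 it was -0.20. The summed share of counts differed between exercised and unexercised fish by -0.207 percentage points, less than the SD of either group, and by -0.0458 points without unexercised library 4.

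**Figure D4:**
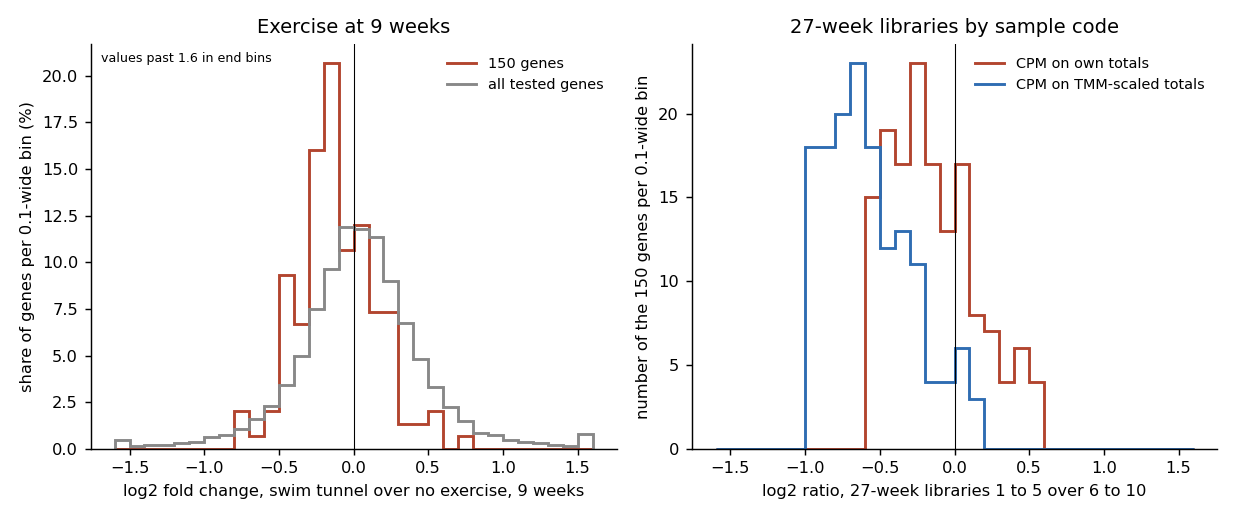
Left, log2 fold change of exercised over unexercised fish of 9 weeks (edgeR, TMM-scaled) as the share of genes per bin, for the 150 genes in red and all tested genes in grey, with medians of -0.15 and 0.04. Right, number of the 150 genes by the log2 ratio of 27-week libraries 1 to 5 over 6 to 10, on own totals in red and on TMM-scaled totals in blue, with 94.0% of genes below 0 in the blue curve.

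The gene of the set with the smallest p among those higher with exercise was Nfu_g_1_002305, rank 30 in the ratio and 1970 bases long. Exercised libraries 1 to 5 of 9 weeks had 5.88, 4.51, 7.26, 7.24 and 10.3 CPM, and unexercised libraries 1 to 5 had 3.796, 4.72, 4.16, 4.87 and 3.21 CPM. The groups overlapped through exercised library 2, and the other 4 exercised libraries were above all unexercised ones. The log2 fold change of 0.79, with an SE of 0.23, did not pass the threshold (edgeR adjusted p = 0.14). It passed with DESeq2, at an adjusted p of 0.0394, and with only 27-week libraries 1 to 5 in the edgeR fit, at 0.0424, within a range of 0.0394 to 0.287 over all alternatives. At 27 weeks the gene stood between 0.944 and 2.75 CPM, with a median of 1.96 CPM, below both 9-week groups. Its log2 fold change at 27 weeks was -1.91 against exercised and -1.12 against unexercised fish of 9 weeks. The latter differ from 27-week fish in exercise as well as age.

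Among genes lower with exercise the smallest p was that of Nfu_g_1_018374, rank 40 and 870 bases long. It had 77.9, 55.1, 69.6, 134.03 and 94.8 CPM in exercised libraries 1 to 5 of 9 weeks and 102.6, 133.3, 108.3, 211.6 and 117.7 CPM in unexercised libraries 1 to 5. Exercised library 4 overlapped the unexercised range, and the other 4 exercised libraries lay below it. The log2 fold change of -0.61, with an SE of 0.19, did not pass the threshold (edgeR adjusted p = 0.171). At 27 weeks it stood between 31.7 and 51.3 CPM, with a median of 40.5 CPM, and library 6 was again the highest. Here the decrease at 27 weeks was smaller against exercised fish of 9 weeks, at -1.07 on the log2 scale, than against unexercised ones, at -1.69.

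The gene with the largest ratio and the most abundant gene did not pass the threshold for exercise. For Nfu_g_1_010825 the log2 fold change was -0.07 with an SE of 0.28 (edgeR adjusted p = 0.954), and for Nfu_g_1_001619 it was -0.19 with an SE of 0.20 (edgeR adjusted p = 0.758). In the whole set 1 gene had all exercised libraries above all unexercised ones (2.25% of tested genes did) and 0 had them all below (1.82% of tested genes). The gene with all exercised libraries above, singled out after its values were seen and called in the fit of the 9-week libraries alone and in both fits with part of the 27-week libraries, ranged from 9.45 to 11.1 CPM with exercise and from 5.74 to 8.91 CPM without it (log2 fold change 0.59, SE 0.22, adjusted p = 0.232 by edgeR). Its 27-week libraries lay between 2.75 and 5.16 CPM.

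**Figure D5:**
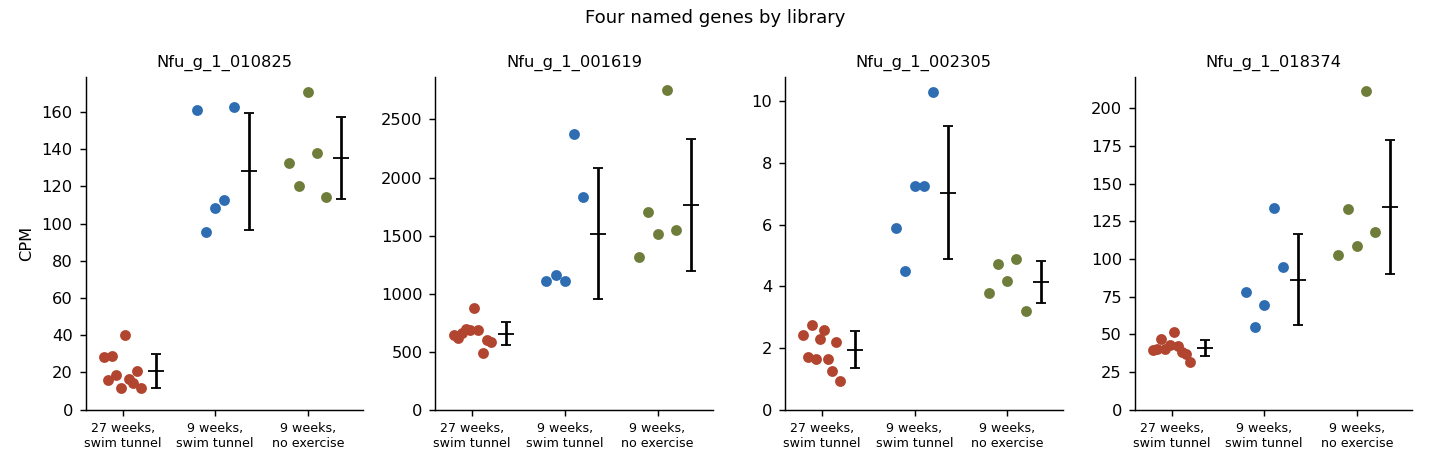
CPM of the 4 named genes in each library (points) with the group mean ± SD (bars), on linear axes that start at 0, for exercised fish of 27 weeks, exercised fish of 9 weeks and unexercised fish of 9 weeks from left to right. All 27-week points lie below all 9-week points in each panel, and the exercised and unexercised points of 9 weeks overlap in all 4.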

How the data were processed

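Muscle total RNA of male killifish was made into libraries with the TruSeq RNA v2 kit, as the labels' protocols state. Named in the submitters' processing notes are featureCounts 1.4.6-p4, STAR 2.4.1d and bcl2fastq 1.8.4. For build, annotation, settings and strand use the sources used here give nothing, and reads of overlapping genes, antisense partners or near-identical copies cannot be told apart. The authors deposited raw counts per gene, whole numbers with library sums from 24333849 to 38571967 over 20 libraries, and a table of RPKM values. The deposited RPKM values had been divided by library totals taken in turn down the rows and not by the total of their own column: with the totals taken in turn, the implied length of a gene of the set varied by a median of 5.6e-05 log2 units between libraries, against 0.248 with own totals. They were used only to recover gene lengths, found for all 150 genes, and RPKM in the text was recomputed from counts, own totals and these lengths. No sample column was left unused, and 4257 genes had no count in any library.

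Libraries were numbered within groups in accession order, as names only. No pair of libraries of 1 group was alike within sampling noise (lowest chi-square per degree of freedom 29.6, over genes whose counts summed to 20 or more). Counts were tested in R 4.3.3 with edgeR 4.0.16: filterByExpr with a minimum count of 10, TMM factors, and a robust quasi-likelihood fit to all 3 groups with group as the only term. Contrasts were two-sided, with Benjamini-Hochberg adjustment over 16653 genes and a threshold of 0.05. A standard error (SE) is the size of the log2 fold change over the square root of F. DESeq2 1.42.0 and limma 3.58.1 (voom) were alternatives. The test was checked on simulated counts. The genes, the comparisons and the naming rule were chosen with earlier results of these data known. Named are the genes of the set with the largest ratio, the highest 9-week mean CPM, and the smallest exercise p in each direction.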

Additional observations from a re-analysis of the deposited data

Results flagged for a closer look

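The gap of a library to its nearest neighbour was divided by the range of its group. By this ratio a library lay far from the rest in 6 of 18 groups tested (6 measures in 3 groups). A rate of 1 in 20 would give 0.9, but it does not apply here, since the same CPM values chose the genes. The measures also overlap, since they come from the same genes, so nothing is concluded from the count. Library 6 of the 27-week fish held 0.817% of its counts in the 150 genes, against 0.54% to 0.642% in the other 9. It also had 874.1 CPM of Nfu_g_1_001619, against 492.3 to 693.8 CPM. Unexercised library 4 of 9 weeks held 2.27% of its counts in the set, against 1.399% to 1.52% in the other 4, and its median deviation was 0.50 log2 units, against -0.14 to -0.11. The same library had 2752 CPM of Nfu_g_1_001619, against 1313 to 1703 CPM, and 211.6 CPM of Nfu_g_1_018374, against 102.6 to 133.3 CPM. All these values are on own totals, and both libraries stood less far apart after TMM scaling. On TMM-scaled totals 27-week library 6 held 0.834% in the set, against 0.448% to 0.732% in the other 9. Unexercised library 4 then held 1.97%, against 1.45% to 1.63% in the other 4. The gap ratio was not computed on that scale.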

How the results depend on the processing

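The number of genes meeting the rule was 444. It was 287 on TMM-scaled totals and 308 on DESeq2 size factors, where 61 and 64 of the 150 genes still met the rule. With a ratio of at least 2 it was 211, and with only unexercised fish on the 9-week side 885. In the latter case 148 of the 150 genes met the rule and 97 stayed among the 150 largest ratios. It ran from 430 to 713 when each library was left out in turn, the highest without 27-week library 6. In these runs 144 to 150 of the 150 genes met the rule and 99 to 146 stayed among the 150 largest ratios. It was 931 without 27-week library 6 and exercised 9-week libraries 2 and 3 together, a choice made after seeing the data. There 145 of the 150 genes met the rule and 87 stayed among the 150 largest ratios. The exercise comparison called 0 genes of the set as reported, with upper-quartile scaling, limma-voom or no filter on low counts, and without any single library. It called 1 with DESeq2, 1 with the 9-week libraries fitted alone, 5 with only 27-week libraries 1 to 5 in the fit and 2 with only libraries 6 to 10. The last pair of fits was added for this count after seeing the data. Over all genes 30 were called as reported, 31 with upper-quartile scaling, 40 with limma-voom and 16 with no filter on low counts. With 1 library left out, the calls ran from 0 higher and 1 lower (unexercised library 3) to 63 higher and 29 lower (exercised 9-week library 4). With so few calls over all genes, 0 in the set says little. There were 356 calls with DESeq2, 174 with the 9-week libraries alone, 522 with only 27-week libraries 1 to 5 and 328 with only libraries 6 to 10. The median log2 fold change of the set at 27 weeks over exercised fish was -1.65 with 27-week libraries 1 to 5 only and -0.996 with libraries 6 to 10 only, and over unexercised fish -1.72 and -1.10. The cause was not tested. All other alternatives for which these medians were taken, which did not include limma-voom, kept them within the spread between libraries. No paired analysis was made, since the labels give no pairing of libraries between groups. Depth limits few of these genes: 29 of 150 had a 27-week library under 100 counts.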
